A study of Mus musculus with 20 samples.

Results

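The NRF2 pathway genes described here are 10 genes chosen by name, Nfe2l2, Keap1, Bach1, Gclc, Gclm, Gsr, Txnrd1, Srxn1, Nqo1 and G6pdx, out of 27827 gene names on a mouse whole genome array. They were read by 16 of the 41174 probes, and the rule that picks them uses names alone. Kidney RNA of C57BL/6 male mice, 8 to 12 weeks old, was hybridised in a single color to Agilent arrays, with 4 arrays in each of 5 groups. Control mice had neither surgery nor treatment. IRI mice had both renal pedicles clamped for 45 min and were killed after 6 h of reperfusion. IPC+IRI mice had an additional clamp of 15 min, 7 days before the same injury. IRI+Hemin mice received 25 mg/kg of Hemin, an inducer of heme oxygenase 1, 24 h before the injury, and Hemin mice received the compound without any surgery. The groups analysed here include no sham operation, no IPC clamp without IRI and no vehicle of Hemin. The sources used here do not say that the 4 arrays of a group came from separate animals, so the p-values measure the spread between these samples.

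NRF2, the product of Nfe2l2, is a transcription factor that is held in the cytoplasm and handed to the proteasome by KEAP1 until electrophiles or oxidants modify KEAP1. In the nucleus it pairs with a small MAF protein on antioxidant response elements, where BACH1, a repressor released by heme, can occupy the same sites. Its known targets supply glutathione, thioredoxin reductase activity, NADPH and quinone reduction, and in the kidney the pathway is known for limiting oxidant damage to the tubule after ischemia.

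The core letters of the antioxidant response element are shown here because they are what the target genes are known to share. RefSeq promoters on GRCm38.p6, from 250 bases before to 50 bases after the start site, were searched for TGACNNNGC and, on the other strand, GCNNNGTCA. The table had an entry for 8 of the 10 genes, all but Gclc and Gsr, and 5 of the 8 held the motif. Among all genes of the table, 14.0% held it, and 12.4% of the 32851 promoters did. Of a list of 25 further known targets, 22 were in the table and 7 held it. The matches are printed on the strand of the gene with 10 bases on each side and the motif in capitals, and a match is a description of letters, not a binding site.
Nfe2l2, chr2:75704885-75704913, minus strand, 240 bases before the start site: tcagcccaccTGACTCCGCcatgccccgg
Gclm, chr3:122245413-122245441, plus strand, 134 bases before the start site: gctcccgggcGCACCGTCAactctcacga
Txnrd1, chr10:82859104-82859132, plus strand, 92 bases before the start site: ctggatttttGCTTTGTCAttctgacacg
G6pdx, chrX:74428919-74428947, minus strand, 57 bases before the start site: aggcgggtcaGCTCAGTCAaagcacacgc
Srxn1, chr2:152105542-152105570, plus strand, from base 29 of the transcript: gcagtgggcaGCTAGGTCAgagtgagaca
Keap1, Bach1 and Nqo1 had no match, which says only that these letters are not in those windows.

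Values are given as log2 expression, the log2 of the signal over the 75th percentile of the array, so 0 stands for that percentile and a difference of 1 for a 2-fold change. The 10 genes were well above background, a flag of the scanner software, on all 20 arrays, and none of their spots was saturated, so all were tested in every comparison. A gene was called higher or lower at an adjusted p below 0.05 in the limma fit of all 20 arrays, adjusted over every gene tested.

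The arrays of a group were on 1 slide that held no other group, and effects of slide and of group therefore cannot be told apart. Control and IRI shared a scan day, as did IPC+IRI and Hemin, and IRI+Hemin was scanned on another day. Therefore IRI vs Control and IPC+IRI vs Hemin are the comparisons made within a scan day, and the latter was chosen after the data were seen. Control replicate 2 had the lowest 75th percentile of the 20 arrays (146.7 units of processed signal) and stood apart from the other Control arrays for Nfe2l2, Keap1, Gclm and Bach1, so values without it are given where they matter. Markers of the kidney tubule and podocyte were well above background on every array. The summed level of the 7 leukocyte markers on the array lay between -0.52 and -0.03 in Control and between -0.35 and 0.98 in Hemin, against 1.84 to 3.15 in IRI, 1.45 to 3.41 in IRI+Hemin and 2.74 to 4.33 in IPC+IRI, and 3 of the 5 markers tested in IRI vs Control were called higher. Cd3e, which defines T cells, was highest on average in Control, and Ms4a1, which defines B cells, was well above background on 0 of the 4 arrays of each injured group. The summed level of 4 proximal tubule markers lay between 8.26 and 8.47 in Control, 7.89 and 8.32 in IRI, 7.57 and 8.08 in IRI+Hemin, 7.76 and 7.98 in IPC+IRI and 8.13 and 8.23 in Hemin. The collecting duct marker Aqp2 was higher than in Control in IRI (1.23), IPC+IRI (0.97) and IRI+Hemin (1.05), and 1 of 2 podocyte markers was lower in each of them. In IPC+IRI vs IRI, 3 of 3 red cell markers were lower (median -1.61), with a summed level between 3.40 and 5.76 against 6.25 and 6.60, as were 2 of 3 endothelial markers (median -1.16), with 0.48 to 1.61 against 1.67 to 2.05. The part of these cells in the results below was not tested, and in whole kidney RNA fewer cells of a type cannot be told apart from less RNA per cell.

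The 10 genes took different courses over the groups. Srxn1 and Txnrd1 were high in the 3 injured groups and low in Control and Hemin. Bach1 and Gclc were higher in IRI than in Control, and their means were higher still in IPC+IRI and IRI+Hemin. Keap1 on the one hand, and Gclm and Gsr on the other, largely separated Control and IRI from the other 3 groups, in opposite directions. The plot of single arrays shows these courses.

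**Figure D1:**
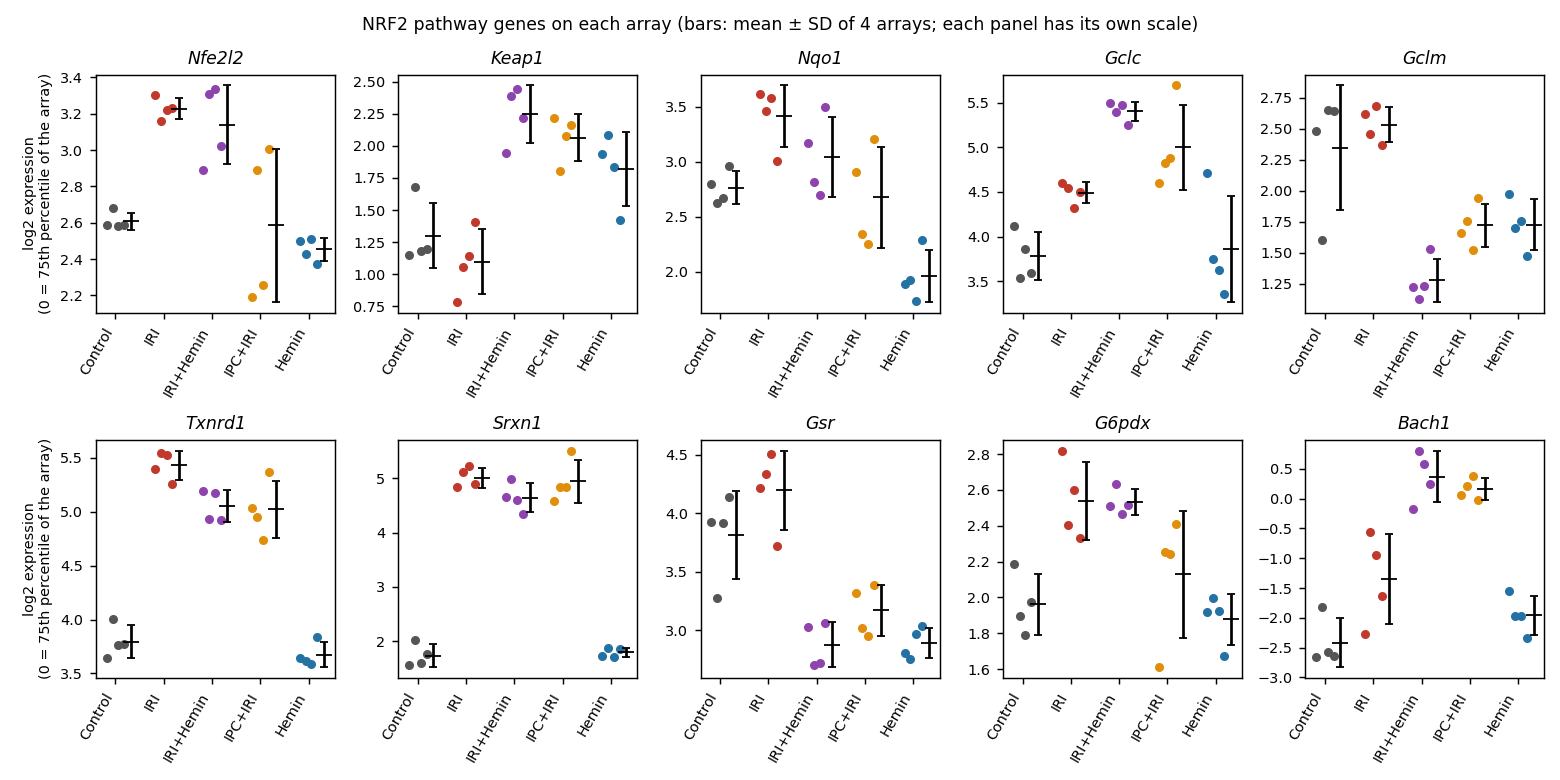
Log2 expression of the 10 NRF2 pathway genes (vertical axis, 0 at the 75th percentile of the array) on each of 20 arrays in the 5 groups, with points for arrays and bars for the mean ± SD of 4 arrays. Srxn1 lies between 1.56 and 2.03 on the Control arrays and above 4.3 on every array of the injured groups, while Gsr is higher on every Control and IRI array but 1 than on any array of the other groups.

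In IRI vs Control, the comparison that addresses the injury itself, 7 of the 10 genes rose and 0 fell, where 17.1% of the 17719 genes tested were called higher and 33.9% lower. Over the 10 genes the log2 fold changes had a median of 0.63, and over all genes tested a median of -0.17. With normexp background correction the median over all genes moved to 0.02 and the calls from 3023 higher and 6007 lower genes to 1789 and 1394, while 6 of the 10 genes were called higher. The count of higher genes was 4 with no normalization between arrays and 3 in the deposited log2 matrix, where 1976 of 17719 and 1478 of 15592 genes tested were higher. By limma the count of 0 lower genes was also 0 at an unadjusted p below 0.05. In IPC+IRI vs Control, 5 rose and 2 fell (background 23.2% and 32.8%, medians 0.47 and -0.09). In IRI+Hemin vs Control, 7 rose and 2 fell (background 24.4% and 33.2%, medians 0.76 and -0.10). With no normalization between arrays 0 of the 10 genes were lower in either, where 2056 of 18352 and 1977 of 18489 genes tested were. In IPC+IRI vs Control 1 was lower with normexp correction or in a fit of the compared arrays alone (3063 and 5500 of all genes). These 3 comparisons share the Control arrays.

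After Hemin without surgery there were 1 higher and 3 lower genes against Control, where 18.5% and 17.6% of 18579 genes were called, and the medians were -0.10 and 0.06. This split turned to 2 higher and 0 lower with no normalization, where 8824 of all genes tested were called higher and 490 lower. It had 0 higher genes with normexp correction, with quantile normalization or when arrays were scaled by well-measured probes (1974, 3670 and 2329 of all genes). In IPC+IRI vs IRI, 2 genes rose and 6 fell (background 26.3% and 17.8%, medians -0.41 and 0.09). With no normalization only 1 was lower, where 603 of 17668 genes were, against 3152 as reported here. With normexp correction or in the deposited matrix 3 were lower, where 2438 of 17668 and 1659 of 15591 genes were. In IRI+Hemin vs IRI, 3 rose and 3 fell (background 26.3% and 18.1%, medians -0.23 and 0.08). In IPC+IRI vs Hemin, within 1 scan day, 5 rose and 0 fell (background 13.2% and 22.8%, medians 0.50 and -0.15). The interaction, which sets the difference made by Hemin in injured kidneys against that in kidneys without surgery, called 0 of the 10 genes in either direction by limma (3 higher and 1 lower at an unadjusted p below 0.05), where 5.84% of 19064 genes were called higher and 1.96% lower.

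The way the arrays were scaled moved the split between higher and lower genes. Over normexp correction, no normalization, quantile normalization, scaling by well-measured probes and the deposited log2 matrix, the share of higher genes among all genes called ran from 19.6% to 56.2% in IRI vs Control (33.5% as reported here), from 33.3% to 75.1% in IPC+IRI vs Control (41.5%), from 33.4% to 77.3% in IRI+Hemin vs Control (42.4%) and from 35.1% to 94.7% in Hemin vs Control (51.3%). It ran from 48.9% to 90.7% in IPC+IRI vs IRI (59.6%), from 44.6% to 91.3% in IRI+Hemin vs IRI (59.2%), from 23.8% to 49.2% in IPC+IRI vs Hemin (36.6%) and from 64.6% to 88.8% in the interaction (74.9%). The upper ends of the 5 group pairs tested across scan days came with no normalization, where the median of all genes reached 0.62 in Hemin vs Control.

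**Figure D2:**
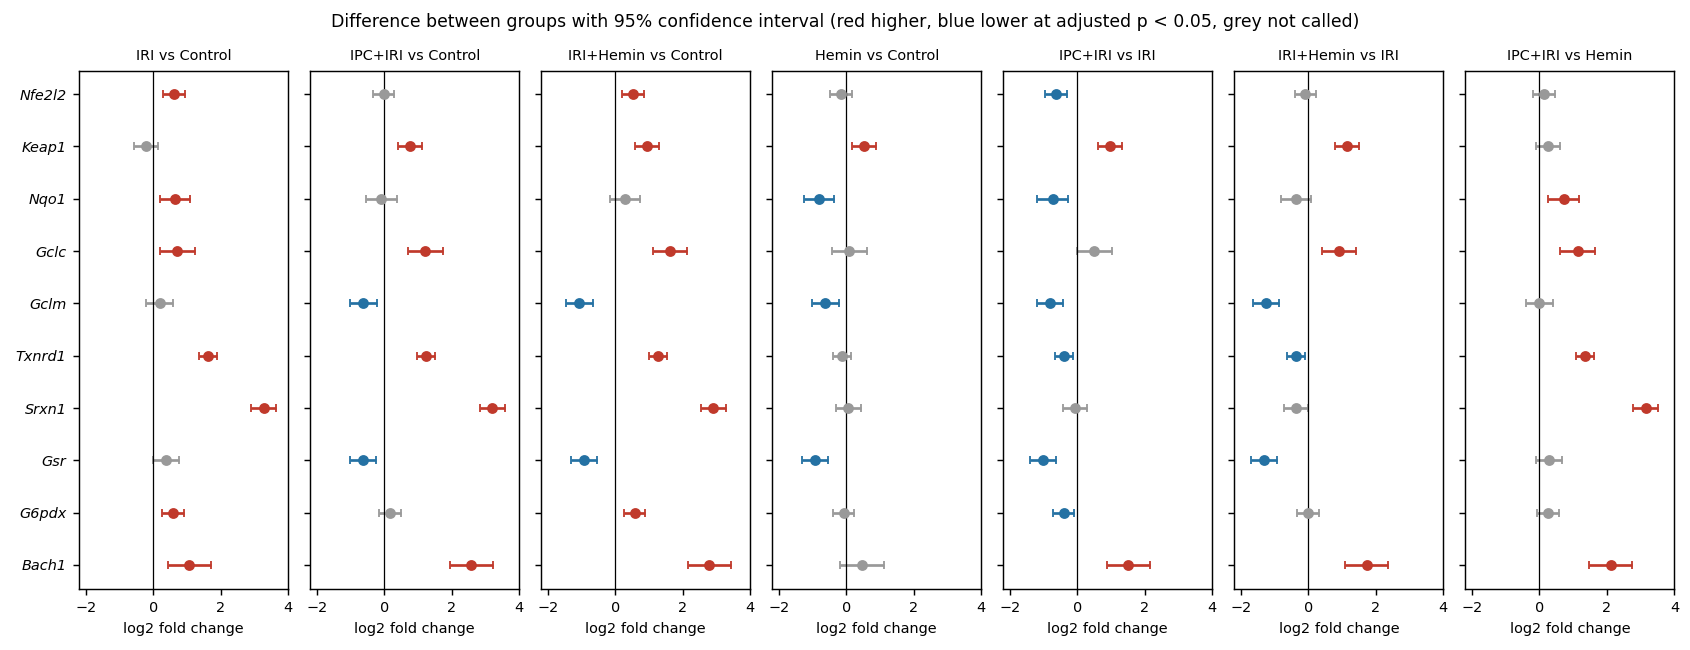
Log2 fold change (horizontal axis) of the 10 genes in 7 comparisons, with points for the limma estimate from 4 arrays a group and bars for the 95% confidence interval, red where called higher, blue where called lower and grey where not called. Srxn1 and Txnrd1 are to the right of 0 in the 3 injured groups against Control, and Gclm and Gsr are to the left in every comparison shown that crosses scan days.

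Among the regulators, Nfe2l2 encodes NRF2 itself. Its log2 expression was 2.59, 2.68, 2.58 and 2.59 on the Control arrays and 3.30, 3.16, 3.22 and 3.23 on the IRI arrays. It was 2.50, 2.43, 2.51 and 2.37 in Hemin, 2.19, 2.89, 2.26 and 3.01 in IPC+IRI, and 2.89, 3.31, 3.33 and 3.02 in IRI+Hemin. All IRI and IRI+Hemin arrays were above all Control arrays, whereas the IPC+IRI arrays spanned the range from below Control to near IRI. Nfe2l2 was 0.62 higher in IRI than in Control (standard error 0.15, adjusted p = 0.0027) and 0.53 higher in IRI+Hemin than in Control (adjusted p = 0.0070). It was lower in IPC+IRI than in IRI (-0.64, standard error 0.15, adjusted p = 0.0027), and no Hemin effect was called (-0.16 against Control, 95% confidence interval -0.48 to 0.17). The rise of Nfe2l2 in IRI was not called with no normalization between arrays (0.74, adjusted p = 0.056) or in the deposited matrix (0.38), that in IRI+Hemin not with quantile normalization (0.36), and the lower value in IPC+IRI than in IRI not with no normalization (-0.33) or in the matrix (-0.45).

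The 3 probes of Nfe2l2 did not move alike. The pair for NM_010902 lies on chromosome 2 from 75513771 to 75513830 and from 75513917 to 75513976 (mm9, minus strand), and the one for AK029360 lies apart from them, from 75529947 to 75530006. The first had means of 3.19 ± 0.14 in Control, 3.75 ± 0.08 in IRI and 3.17 ± 0.54 in IPC+IRI (SD, n = 4), and the second 3.15 ± 0.06, 3.66 ± 0.10 and 2.58 ± 0.57. This pair also differed after Hemin. In Hemin vs Control the first probe had a log2 difference of 0.12, with overlap of arrays, and the second -0.53, without overlap. In IRI+Hemin vs Control the first had 0.64, without overlap, and the second 0.13, with overlap. The AK029360 probe had -1.91 ± 0.08 in Control and -1.48 ± 0.18 in Hemin, against 0.91 ± 0.55 in IRI, 1.45 ± 0.28 in IPC+IRI and 1.18 ± 0.50 in IRI+Hemin. This was 7.04-fold higher in IRI and 10.3-fold higher in IPC+IRI than in Control, with no overlap of arrays, against 1.48-fold and 1.43-fold higher in IRI for the NM_010902 probes. The gene value is a mean of signals on the linear scale, so the probes of higher signal weigh most in it. With a mean of log2 values instead, Nfe2l2 was called higher in IPC+IRI than in Control (0.92, adjusted p = 9.6e-06), where the difference was -0.02 before, and in IPC+IRI than in Hemin (0.92, adjusted p = 2.6e-05), where it was 0.13. Its differences from Control were then 1.30 in IRI and 1.29 in IRI+Hemin, against 0.62 and 0.53 before. Probe differences were given no test, and which transcript the AK029360 probe reads was not determined here.

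**Figure D3:**
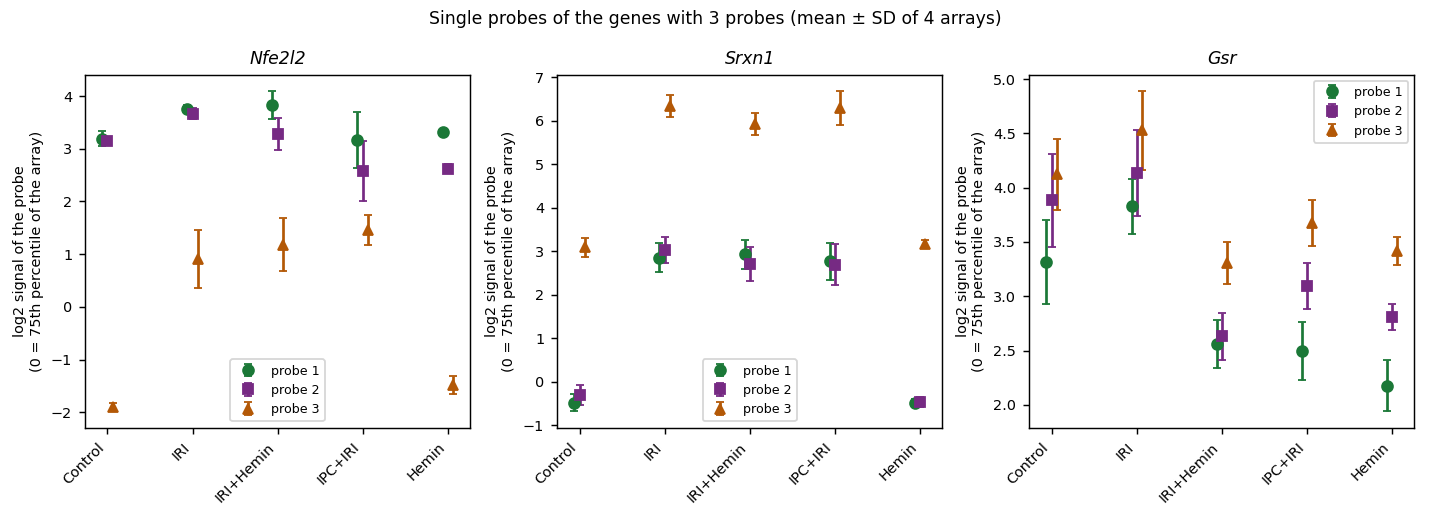
Log2 signal (vertical axis, 0 at the 75th percentile of the array) of the 3 probes of Nfe2l2, Srxn1 and Gsr in the 5 groups, numbered by position on the chromosome, with points for the mean and bars for the SD of 4 arrays. Probe 3 of Nfe2l2 goes from -1.91 in Control to 1.45 in IPC+IRI while probe 1 has 3.19 and 3.17, each probe of Srxn1 has its higher means in the 3 injured groups, and each probe of Gsr in Control and IRI.

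Keap1 encodes the adaptor by which the CUL3 ubiquitin ligase recognises NRF2. It had 1.15, 1.68, 1.18 and 1.20 in Control and 0.79, 1.06, 1.14 and 1.40 in IRI, which overlapped. It had 1.94, 2.39, 2.44 and 2.22 in IRI+Hemin, 2.22, 1.80, 2.07 and 2.17 in IPC+IRI and 1.93, 2.09, 1.84 and 1.42 in Hemin. Every IRI+Hemin and IPC+IRI array was above every Control and IRI array. Keap1 was 0.97 higher in IPC+IRI than in IRI (standard error 0.17, adjusted p = 0.00024) and 1.15 higher in IRI+Hemin than in IRI (adjusted p = 5.48e-05). In Hemin it was 0.52 higher than in Control (adjusted p = 0.024), a call that was lost when any of Control replicates 1, 3 and 4 or Hemin replicates 1 and 2 was left out and that was 0.64 without Control replicate 2. It was also lost with normexp correction (0.55, adjusted p = 0.054), with quantile normalization (0.43) and with scaling over the well-measured probes, those above background on each of the 20 arrays (0.40). Neither comparison within a scan day called Keap1, with -0.20 in IRI vs Control (95% confidence interval -0.56 to 0.15) and 0.24 in IPC+IRI vs Hemin (-0.11 to 0.60).

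Bach1 encodes the repressor that competes with NRF2 and loses DNA binding when it binds heme. Its log2 expression was -2.66, -1.81, -2.57 and -2.63 in Control, -2.27, -0.57, -0.94 and -1.63 in IRI, and -1.54, -1.97, -1.97 and -2.34 in Hemin. It was -0.17, 0.81, 0.59 and 0.25 in IRI+Hemin and 0.06, 0.21, 0.38 and -0.03 in IPC+IRI. The arrays of both pretreated and injured groups lay above all others, and IRI overlapped with Control and with Hemin. Bach1 was 6.90-fold higher in IRI+Hemin and 5.96-fold higher in IPC+IRI than in Control (log2 fold changes 2.79 and 2.58, standard errors 0.30, adjusted p = 1.05e-06 and 2.81e-06), and 2.09-fold higher in IRI (adjusted p = 0.0071). Against IRI it was 1.72 higher in IRI+Hemin and 1.51 higher in IPC+IRI (adjusted p = 0.00025 and 0.00073), and within the scan day it was 2.11 higher in IPC+IRI than in Hemin (adjusted p = 5.13e-05). The interaction of Hemin and IRI was 1.26 (standard error 0.43, adjusted p = 0.084), which did not pass the threshold and passed it without IRI replicate 2 (1.52, adjusted p = 0.031). With normexp correction the differences of Bach1 from Control kept their calls and were smaller, at 0.71 in IRI, 1.52 in IPC+IRI and 1.75 in IRI+Hemin. With no normalization Bach1 was also called higher in Hemin than in Control (1.03, adjusted p = 0.011, against 0.46 here).

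In glutathione synthesis, Gclc and Gclm encode the catalytic and the modifier subunit of glutamate-cysteine ligase, the rate-limiting enzyme, and they went in different directions. Gclc had 4.12, 3.54, 3.86 and 3.60 in Control, 4.60, 4.55, 4.33 and 4.50 in IRI, and 4.71, 3.75, 3.63 and 3.36 in Hemin. It had 5.49, 5.40, 5.47 and 5.25 in IRI+Hemin and 4.60, 4.83, 4.88 and 5.69 in IPC+IRI. All injured arrays were above all Control arrays, and Hemin replicate 1 reached the injured range. Gclc was 0.71 higher in IRI than in Control (standard error 0.25, adjusted p = 0.022, and 0.060 without Control replicate 2), 1.22 higher in IPC+IRI (adjusted p = 0.00045) and 1.62 higher in IRI+Hemin (adjusted p = 2.94e-05). It was also higher in IRI+Hemin than in IRI, by 0.91 (standard error 0.25, adjusted p = 0.0063), and its interaction of 0.83 (adjusted p = 0.17) passed the threshold without Hemin replicate 1, at 1.11 (adjusted p = 0.026). The rise of Gclc in IRI was also not called with normexp correction (0.60, adjusted p = 0.12), with no normalization (0.83), with quantile normalization (0.62), in the deposited matrix (0.53) or without Control replicate 4 (0.65).

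Gclm had 2.48, 1.60, 2.66 and 2.65 in Control and 2.62, 2.46, 2.68 and 2.37 in IRI. It had 1.23, 1.13, 1.23 and 1.53 in IRI+Hemin, 1.66, 1.76, 1.52 and 1.94 in IPC+IRI and 1.97, 1.70, 1.76 and 1.47 in Hemin. Apart from Control replicate 2, all Control and IRI arrays were above all arrays of the other groups. Gclm was lower in IRI+Hemin than in IRI (-1.26, standard error 0.19, adjusted p = 6.26e-05), lower in IPC+IRI than in IRI (-0.81, adjusted p = 0.0022) and lower in Hemin than in Control (-0.62, adjusted p = 0.017, or -0.87 without Control replicate 2). The Hemin call was lost when Control replicate 3, Control replicate 4 or Hemin replicate 4 was left out, with normexp correction (-0.56) and in the deposited matrix (-0.55), and the lower value in IPC+IRI than in IRI was lost with normexp correction (-0.45, adjusted p = 0.10) and with no normalization (-0.50, adjusted p = 0.19). In IPC+IRI vs Control Gclm was also lower (-0.63, adjusted p = 0.0091), a call lost with normexp correction (-0.43, adjusted p = 0.12) and in a fit of the compared arrays alone (adjusted p = 0.054). The same settings and the deposited matrix ended its call in Hemin vs Control (adjusted p = 0.061, 0.064 and 0.053). The difference was 0.19 in IRI vs Control (95% confidence interval -0.21 to 0.58), or -0.06 without Control replicate 2, and -0.01 in IPC+IRI vs Hemin (-0.40 to 0.39).

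Gsr encodes glutathione reductase, which returns oxidised glutathione to its reduced form with NADPH. It had 3.93, 3.27, 3.91 and 4.14 in Control, 4.21, 4.34, 4.51 and 3.72 in IRI, and 3.02, 2.70, 2.72 and 3.06 in IRI+Hemin. It had 3.32, 3.02, 2.95 and 3.38 in IPC+IRI and 2.81, 2.76, 2.96 and 3.03 in Hemin. It was lower in IRI+Hemin than in IRI (-1.32, standard error 0.18, adjusted p = 3.49e-05), in IPC+IRI than in IRI (-1.03, adjusted p = 0.00029) and in Hemin than in Control (-0.93, adjusted p = 0.0012), with no overlap of arrays. Its 3 probes, on chromosome 8 between 34807813 and 34808458 (mm9), had log2 differences of -1.14, -1.08 and -0.71 in Hemin vs Control and of -1.27, -1.50 and -1.22 in IRI+Hemin vs IRI. Within a scan day Gsr was not called, with 0.38 in IRI vs Control (95% confidence interval -0.01 to 0.77) and 0.28 in IPC+IRI vs Hemin (-0.11 to 0.67). Without IRI replicate 4 it was called higher in IRI than in Control (0.54, adjusted p = 0.018), and likewise without Control replicate 4 (0.49, adjusted p = 0.044). Without Control replicate 2, the lowest Control array for Gsr, the difference fell to 0.20 and was not called.

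Keap1, Gclm and Gsr were therefore called in the 5 tested comparisons of group pairs that cross scan days and in neither of the 2 within a day. The interaction, which also spans scan days, called none of them (adjusted p = 0.12 for Keap1, 0.16 for Gclm and 0.41 for Gsr). IRI+Hemin was not tested against Hemin or IPC+IRI, which were scanned on another day. Its arrays overlapped with those of Hemin for all 3 genes, with means of 2.88 and 2.89 for Gsr, 2.25 and 1.82 for Keap1 and 1.28 and 1.73 for Gclm, whose ranges met only between 1.47 and 1.53. With no normalization between arrays, the lower values of Gclm and Gsr in IPC+IRI, IRI+Hemin and Hemin against Control were no longer called (-0.59 to -0.06 for Gclm and -0.45 to -0.21 for Gsr), nor was that of Gclm in IPC+IRI vs IRI. The calls of Keap1 in the 5 comparisons, of Gsr in IPC+IRI vs IRI (-0.71, adjusted p = 0.037) and of Gclm and Gsr in IRI+Hemin vs IRI (-0.89, adjusted p = 0.020, and -0.95, adjusted p = 0.0064) held under that setting. Whether day, slide or treatment set these differences cannot be told apart.

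Among the genes of thioredoxin and peroxiredoxin repair, Srxn1 encodes sulfiredoxin, which reactivates overoxidised peroxiredoxins. Its difference from Control was the largest of the 10 genes in each injured group, but not in the deposited matrix, where Txnrd1 had the larger one in IRI (1.45 against 1.39) and Bach1 in IPC+IRI (2.52 against 2.08) and IRI+Hemin (2.80 against 2.04), nor with quantile normalization in IRI+Hemin (Bach1 2.96 against 2.77). Its log2 expression was 1.56, 2.03, 1.60 and 1.77 in Control and 1.74, 1.88, 1.71 and 1.87 in Hemin. It was 4.83, 5.11, 5.22 and 4.89 in IRI, 4.66, 4.99, 4.60 and 4.34 in IRI+Hemin and 4.58, 4.83, 4.84 and 5.51 in IPC+IRI. The injured groups overlapped with one another and lay far above Control and Hemin, which also overlapped.

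Srxn1 was 9.65-fold higher in IRI than in Control (log2 fold change 3.27, standard error 0.17, adjusted p = 3.55e-10), 9.20-fold higher in IPC+IRI and 7.49-fold higher in IRI+Hemin. Within the scan day that IPC+IRI and Hemin shared, it was 8.84-fold higher in IPC+IRI than in Hemin (log2 fold change 3.14, adjusted p = 2.13e-09). No difference was called between IPC+IRI and IRI (-0.07, 95% confidence interval -0.43 to 0.29) or between IRI+Hemin and IRI (-0.37, adjusted p = 0.095), although the latter was called without IRI+Hemin replicate 2 (-0.48, adjusted p = 0.040). Its 3 probes, on chromosome 2 between 151935185 and 151936978 (mm9), had log2 differences of 3.33, 3.35 and 3.25 in IRI vs Control. The first 2 of them overlap each other on the chromosome and are not independent readings. In the deposited matrix, which has blanks, the difference of Srxn1 was 1.39 in IRI vs Control (adjusted p = 0.029) and 2.08 in IPC+IRI vs Control (adjusted p = 0.0024), and the cause was not tested.

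Txnrd1 encodes the cytosolic thioredoxin reductase. It had 3.65, 4.00, 3.76 and 3.77 in Control, 5.39, 5.55, 5.53 and 5.26 in IRI, and 3.65, 3.61, 3.59 and 3.84 in Hemin. It had 5.19, 4.93, 5.17 and 4.92 in IRI+Hemin and 5.04, 4.95, 4.74 and 5.37 in IPC+IRI. Again no injured array overlapped with Control or Hemin, and all IRI+Hemin arrays were below all IRI arrays. Txnrd1 was 3.11-fold higher in IRI than in Control (log2 fold change 1.64, standard error 0.13, adjusted p = 2.61e-08), 2.34-fold higher in IPC+IRI and 2.39-fold higher in IRI+Hemin. It was lower in IRI+Hemin than in IRI (-0.38, standard error 0.13, adjusted p = 0.022) and lower in IPC+IRI than in IRI (-0.41, adjusted p = 0.014). Both calls were lost with normexp background correction (-0.04 and -0.06), with no normalization (-0.01 and -0.09) and in the deposited matrix (-0.18 and -0.27). The first was also lost without IRI replicate 2 or 3 or IRI+Hemin replicate 2 or 4 (-0.35 to -0.34), and the second without IPC+IRI replicate 3 (-0.31) or in a fit of the compared arrays alone (adjusted p = 0.061).

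For quinone reduction and NADPH, Nqo1 encodes a quinone reductase often used as a readout of NRF2. It had 2.80, 2.63, 2.67 and 2.96 in Control, 3.61, 3.46, 3.58 and 3.01 in IRI, and 1.89, 1.93, 1.74 and 2.29 in Hemin. It had 3.17, 2.81, 2.69 and 3.50 in IRI+Hemin and 2.91, 2.35, 2.25 and 3.21 in IPC+IRI. IRI was above Control and Hemin below it on every array, while both pretreated and injured groups overlapped with Control. Nqo1 was 0.65 higher in IRI than in Control (standard error 0.21, adjusted p = 0.017) and lower in Hemin than in Control (-0.80, standard error 0.21, adjusted p = 0.0077). It was lower in IPC+IRI than in IRI (-0.74, adjusted p = 0.0097) and higher in IPC+IRI than in Hemin (0.72, adjusted p = 0.015), though the latter was not called without IPC+IRI replicate 4 (0.54, adjusted p = 0.058), with normexp correction (0.51, adjusted p = 0.089) or with no normalization (0.59, adjusted p = 0.081). The rise of Nqo1 in IRI was not called in the deposited matrix (0.46, adjusted p = 0.058), and with no normalization neither its lower value in Hemin (-0.24) nor that in IPC+IRI against IRI (-0.42) was called.

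G6pdx encodes glucose-6-phosphate dehydrogenase, which makes NADPH in the pentose phosphate pathway. It had 2.19, 1.89, 1.79 and 1.97 in Control, 2.82, 2.41, 2.60 and 2.33 in IRI, and 2.51, 2.63, 2.46 and 2.52 in IRI+Hemin. It had 1.61, 2.25, 2.25 and 2.41 in IPC+IRI and 1.92, 2.00, 1.93 and 1.67 in Hemin. The arrays of IRI and of IRI+Hemin were above those of Control, by 0.58 and 0.57 on average (standard errors 0.15, adjusted p = 0.0041 and 0.0039). G6pdx was lower in IPC+IRI than in IRI (-0.41, adjusted p = 0.036), a value that went to -0.24 and was no longer called without IPC+IRI replicate 1, the lowest of that group, and was also not called without IRI replicate 1 or 3 (-0.32 and -0.39), with normexp correction (-0.29), with no normalization (-0.09), in the deposited matrix (-0.39, adjusted p = 0.10), in a fit of the compared arrays alone (adjusted p = 0.12) or with no filter on dim genes (adjusted p = 0.054). Without IPC+IRI replicate 1, G6pdx was also called higher in IPC+IRI than in Control (0.34, adjusted p = 0.030, against 0.17 with all arrays). The same held for IPC+IRI vs Hemin (0.42, adjusted p = 0.015, against 0.25). The rise of G6pdx in IRI was not called with no normalization (0.70, adjusted p = 0.054) or in the deposited matrix (0.39).

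The 2 comparisons made within a scan day share no array. Nqo1, Gclc, Txnrd1, Srxn1 and Bach1 were higher in the injured group in both, by 0.65 and 0.72 for Nqo1, 0.71 and 1.14 for Gclc, 1.64 and 1.35 for Txnrd1, 3.27 and 3.14 for Srxn1 and 1.07 and 2.11 for Bach1. Of these calls, that of Nqo1 in IRI vs Control was lost in the deposited matrix (adjusted p = 0.058) and that in IPC+IRI vs Hemin under the settings named above. That of Gclc in IRI vs Control was lost with normexp correction (adjusted p = 0.12), no normalization (adjusted p = 0.075), quantile normalization (adjusted p = 0.060), in the deposited matrix (adjusted p = 0.078) and without Control replicate 2 or 4 (adjusted p = 0.060 and 0.056). The second comparison also differs in the earlier IPC clamp and in Hemin, so it is not a repeat of the first.

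The partners of the pathway, 10 genes for small MAF proteins, the KEAP1 ligase and related regulators, had 5 higher and 0 lower genes in IRI vs Control (background 17.1% and 33.9%), 6 and 1 in IPC+IRI vs Control (23.2% and 32.8%) and 5 and 1 in IRI+Hemin vs Control (24.4% and 33.2%). Maff, a small MAF protein, went from -2.23 ± 0.35 in Control and -2.15 ± 0.44 in Hemin to 3.76 ± 0.59 in IRI, 3.29 ± 0.19 in IRI+Hemin and 3.43 ± 0.36 in IPC+IRI (SD, n = 4). That was a 63.3-fold difference in IRI vs Control (adjusted p = 5.63e-11), and 47.9-fold between IPC+IRI and Hemin. Mafk, another small MAF, rose 5.04-fold in IRI and was lower in IRI+Hemin than in IRI (-1.10, adjusted p = 6.3e-05) and in IPC+IRI than in IRI (-0.80, adjusted p = 0.00091). In Hemin vs Control, 1 partner was higher and 2 were lower, near the background of 18.5% and 17.6%.

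Of 25 other known targets, 23 or 24 could be tested in each comparison. Against Control, 7 of 23 were higher and 1 lower in IRI (background 17.1% and 33.9%), 9 and 5 of 24 in IPC+IRI (23.2% and 32.8%), 7 and 4 of 24 in IRI+Hemin (24.4% and 33.2%) and 2 and 3 of 24 in Hemin (18.5% and 17.6%). The count of higher targets in IRI+Hemin was near the background, and both counts in Hemin were below it. Hmox1, the heme oxygenase that Hemin induces, had 0.96, 2.14, 1.18 and 1.18 in Control, 1.69, 1.91, 2.20 and 1.92 in Hemin, 5.69, 5.63, 6.14 and 6.67 in IRI, and 2.87, 4.65, 2.99 and 5.32 in IPC+IRI. In IRI+Hemin it had 5.38, 6.12, 6.61 and 5.09. Hemin without surgery overlapped with Control for Hmox1 (0.56, standard error 0.46, adjusted p = 0.36). The overlap was with Control replicate 2 alone (2.14), since the other Control arrays were below all Hemin arrays. Hmox1 was not refitted without that array. IPC+IRI was lower than IRI for Hmox1 (-2.07, standard error 0.46, adjusted p = 0.0016). The IPC+IRI arrays with the higher Hmox1 values, replicates 2 and 4, were also those with the higher Nfe2l2 values.

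Further targets went both ways. Cbr3, a carbonyl reductase, was 6.53-fold higher in IPC+IRI and 6.45-fold higher in IRI+Hemin than in Control, against 2.05-fold in IRI. Idh1, a cytosolic source of NADPH, was lower in IRI+Hemin (-1.74, adjusted p = 4.38e-07) and IPC+IRI (-1.03, adjusted p = 8.93e-05) than in Control, and also in IRI (-0.74, adjusted p = 0.0017) and Hemin (-0.73, adjusted p = 0.0037) than in Control. Osgin1, an oxidative stress response gene, was 3.93-fold higher in IRI than in Control and lower in IPC+IRI than in IRI (-1.35, adjusted p = 0.00082). The plot of shares sets these lists beside the background.

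**Figure D4:**
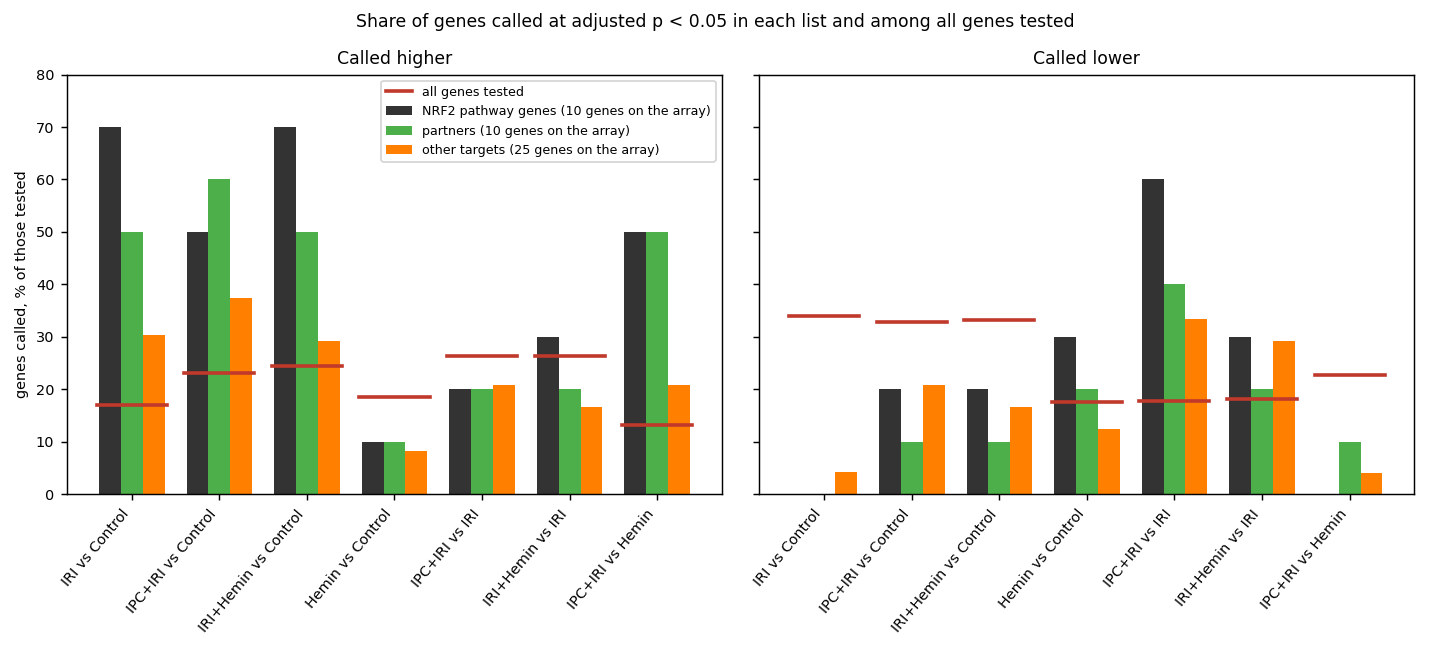
Percent of the tested genes of each list called higher (left) or lower (right) in 7 comparisons (horizontal axis), with bars for the 10 NRF2 pathway genes, 10 partners and 25 other targets and red lines for all genes tested. In IRI vs Control 7 of the 10 pathway genes are called higher against 17.1% of all genes, and in Hemin vs Control 1 is, against 18.5%.

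The genes whose values followed a member most closely over the 20 arrays were sought among 14533 genes. For Srxn1 they were Mt1, Cdkn1a, Tubb6 and Socs3 (Pearson's r from 0.984 to 0.985), for Txnrd1 they were Atf6, Ptp4a1 and Pvr (0.980 to 0.985), and for Bach1 the closest was Usp36 (0.963). Within the 10 genes, Txnrd1 and Srxn1 were the closest pair (r = 0.971), followed by Gclm and Gsr (0.900), and Keap1 ran opposite to Gsr (-0.861) and Gclm (-0.852). These arrays share groups, slides and scan days, so r describes the pattern over the 5 groups and carries no test.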

How the data were processed

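The authors deposited intensity values, the scanner output of each array, in which Agilent Feature Extraction 9.5.3.1 (per the labels) had subtracted a background and made no step between arrays. They also deposited a log2 matrix, of which 100% of the values of 33598 single-spot probes lay within 0.001 of the log2 of that processed signal, 18.1% being blank. Its 20 column medians ran from 5.99 to 6.96, and it was used as an alternative only.

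From the processed signal of 43379 non-control spots, uneven or outlying spots were removed (at most 0.38% of an array) and saturated ones kept. The mean signal of a probe's spots was scaled to the 75th percentile of its array. The probes under 1 gene name were then averaged on the linear scale, following the methods of the study, before the log2. A gene was tested with at most 1 missing value and at least 3 of 4 arrays of either group well above background. limma 3.58.1 (R 4.3.3, data.table version 1.17.8) was fitted to 5 group means with 15 residual degrees of freedom. In each of 8 comparisons, two-sided p-values received a Benjamini-Hochberg adjustment over all genes tested. On simulated data with 200 changed genes, between 51% (the interaction) and 78% (IPC+IRI vs Control) of 2-fold changes were recovered. There, all other genes had the same mean in every group, with independent noise and no effect of slide or day. Far more genes were called in the real comparisons, so these rates need not hold for them. The fold cutoffs and the SAM test of the study were not applied in the main results, since the fold cutoffs are an alternative and SAM was not run here.

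The 10 genes, the partner, target and marker lists and the rule for the named genes (all 10, and of the other lists those called with the largest differences) were chosen with earlier results of these data known. Precision is limited by 4 arrays a group, and an exact permutation test of 4 against 4 arrays cannot go below p = 0.029. Probe positions are on mm9 as the files give them. Alternatives were the background correction, the scaling, the mean over probes, the filter, the deposited matrix, a fit of the compared arrays alone, a fold cutoff, the replicate number as a block and each array left out in turn.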

Additional observations from a re-analysis of the deposited data

Results flagged for a closer look

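Over the 10 pathway genes and the other genes named, 110 groups of 4 arrays were looked at for an array far from the other 3, and 10 were found, 4 of them among the 50 groups of the pathway genes. Chance alone gives about 1 in 20. For 5 genes it was Control replicate 2, the dimmest Control array. It had a log2 expression of 2.68 for Nfe2l2 where the other Control arrays had 2.58 to 2.59, 1.68 for Keap1 (others 1.15 to 1.20), 1.60 for Gclm (others 2.48 to 2.66), -1.81 for Bach1 (others -2.66 to -2.57) and 3.90 for Rbx1 (others 3.22 to 3.24). Osgin1 stood apart in IRI+Hemin replicate 2 (2.87, others 3.57 to 3.71) and in Hemin replicate 3 (1.78, others 1.66). Btrc did so in IPC+IRI replicate 4 (-2.72, others -2.57 to -2.55), Txn1 in IRI+Hemin replicate 4 (3.72, others 4.91 to 5.04) and Taldo1 in IRI+Hemin replicate 2 (6.34, others 6.13 to 6.14).

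Taldo1, which encodes transaldolase of the pentose phosphate pathway, was the target whose Hemin difference changed with the injury. By limma it was 0.45 higher in Hemin than in Control (adjusted p = 0.0039). The difference of IRI+Hemin from IRI was -0.13 and was not called (adjusted p = 0.34). The interaction was -0.58 on the log2 scale (limma adjusted p = 0.025).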

How the results depend on the processing

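Over 1680 values of single genes under the alternatives, 1521 kept their direction and their side of the threshold, 96 lost a call and 11 gained one. Another 51 changed sign without being called under either setting, and 1 uncalled value changed sign and became called, Nfe2l2 in IPC+IRI vs Control with a mean of log2 values over probes (0.92). Of the values called at first, 0 changed sign. With a fold cutoff of 3 up and 2 down, which removes smaller changes, 2 genes were higher in IRI vs Control (496 of all 17719 genes tested). There were 2 in IPC+IRI vs Control (640 of 18352), 3 in IRI+Hemin vs Control (618 of 18489) and 0 in Hemin vs Control (78 of 18579). Higher genes numbered 0 in IPC+IRI vs IRI (361 of 17668), 1 in IRI+Hemin vs IRI (440 of 17835) and 2 in IPC+IRI vs Hemin (449 of 18544). Lower genes numbered 0 in IPC+IRI vs Control (2587 of 18352) and 1 in IRI+Hemin vs Control (2674 of 18489). They numbered 0 in Hemin vs Control (1112 of 18579) and 1 in IPC+IRI vs IRI (777 of 17668). With no normalization between arrays, 4 genes were higher in IRI vs Control and 2 in Hemin vs Control, and 0 were lower in IPC+IRI vs Control, 0 in IRI+Hemin vs Control, 0 in Hemin vs Control and 1 in IPC+IRI vs IRI. With the deposited log2 matrix, 3 were higher in IRI vs Control and 3 lower in IPC+IRI vs IRI. With normexp background correction, 0 were higher in Hemin vs Control, 1 lower in IPC+IRI vs Control and 3 lower in IPC+IRI vs IRI. Quantile normalization and scaling by the 75th percentile of probes well above background on all arrays each left 0 higher in Hemin vs Control, and a fit of the compared arrays alone left 1 lower in IPC+IRI vs Control. For the settings other than the fold cutoff, the counts over all genes are given with the same comparisons above. The cause of these changes was not tested.

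With 1 array left out in turn, the count of higher genes ran from 0 to 1 in Hemin vs Control and from 0 to 1 in the interaction. Same-numbered arrays of different groups did not deviate together (correlations from -0.38 to 0.21, 7 of 40 pairs above 0.1), so the numbers do not pair the samples, and 4 of 20 arrays were closest to an array of their own number. With the replicate block, 1 gene, Bach1, was higher in the interaction (1.26, adjusted p = 0.046), G6pdx in IPC+IRI vs IRI was not called (-0.41, adjusted p = 0.060), and no other call of the 10 genes changed. The slide as a random block was not run, because each group lies on 1 slide. All 10 genes were well above background, but Bach1, the dimmest of them in Control (-2.42), had differences that were smaller with normexp correction, and 4 arrays a group limit small differences.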
